A study of Mus musculus with 6 samples.

Results

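Interleukins are named cytokines that leukocytes, epithelia and stromal cells use to signal to each other, and the rows of the expression table that carry their names and those of their receptors are described here: every row whose gene name begins with Il and a number. Of the 40993 rows of the table, 82 were named in this way, 41 on the ligand side (ligands, binding proteins and antagonists) and 41 receptors. The enzyme gene Il4i1 and the antisense gene Il1bos, which are none of these, were counted on the ligand side. The table holds whole kidneys of C57BL/6 mice aged 2 months, 3 on an adenine-enriched diet and 3 on a standard diet, and the tissue was compared as RNA-seq. Adenine feeding is used in mice as a model of kidney injury, in which a metabolite of adenine precipitates in the tubules. Every mouse shared strain and age. The labels give neither the dose nor the length of the feeding, and they do not say that each sample was a separate animal, so the p-values below measure the spread between these samples. Libraries are called by diet and replicate number, and values per library are given in the order of replicates 1, 2 and 3.

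In the IL-1 family, IL-1 alpha and IL-1 beta bind a receptor that also accepts the antagonist encoded by Il1rn, while IL-33, IL-18 and the IL-36 cytokines each use a receptor of their own from the same family. The IL-6 family signals through the shared chain gp130, encoded by Il6st, and many lymphocyte growth factors signal through the common gamma chain, encoded by Il2rg. In injured kidneys IL-1 and IL-33 are released by dying or activated cells, macrophages respond to IL-34 from the tubule, and receptors such as Il17ra and Il22ra1 sit on epithelia.

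Values are FPKM, fragments scaled to transcript length and library size, so levels of different genes can be set side by side. Estimated depth was 17.5 to 23.4 M fragments in the adenine libraries and 17.2 to 20.1 M fragments in the standard libraries, and 3 fragments of a 2000 bp transcript amount to 0.071 to 0.097 FPKM. Kidney markers were present at high level (Umod, the uromodulin of the thick ascending limb, 2888, 3505 and 3486 FPKM on adenine and 2393, 2636 and 2489 FPKM on the standard diet). Rows spanning under 300 bp took 90.1% of the summed FPKM in standard 2 and 11.2% to 26.3% in the other libraries. In whole kidney, more cells of a type and more RNA per cell cannot be told apart.

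Of the 82 rows, 64 were above 0 FPKM in 3 or more libraries, and 47 of these had a mean of at least 0.5 FPKM and were tested with the rest of the table (limma on log2(FPKM + 1), Benjamini-Hochberg over 15431 rows, threshold 0.05). On the adenine-enriched diet 31 tested interleukin rows were higher, 66.0% of those tested, where 29.7% of all rows were called higher and 36.5% were called in either direction. Lower was 1 row, Il1f5, or 2.13%, where 6.84% of all rows were called lower. The median log2 change of the 47 rows was 0.97, and that of all 15431 rows was 0.25. A log2 change above 1 was reached by 23 of the 47 (48.9%) and by 11.6% of all rows. Rows below the filter in the standard libraries enter only when high on adenine: of 12 tested rows with a standard mean below 0.5 FPKM, 9 were higher, and of 35 at or above it, 22 were higher, 1 lower and 12 not called. Shares of all rows split in this way were not worked out, so these counts have no background to be read against. The filter also works the other way. Il1f5, the row called lower, had a mean of 0.277 FPKM on adenine and entered only through its standard mean of 0.898 FPKM. Receptors made up 23 of the 31 (of 33 tested) and the ligand side 8 (of 14 tested), Il4i1 among them. No receptor was called lower by limma, 1 being lower at an unadjusted p below 0.05. The deposited scale places the whole table higher on adenine. With FPKM rescaled by the median of ratios, the median log2 change over the interleukins was 0.80 and over all rows −0.004, with 28 higher and 4 lower where 16.8% and 15.2% of all rows were called. With quantile normalization it was 0.64 over the interleukins and −0.08 over all rows, with 23 higher and 3 lower, where 13.9% and 14.5% of all rows were called.

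**Figure D1:**
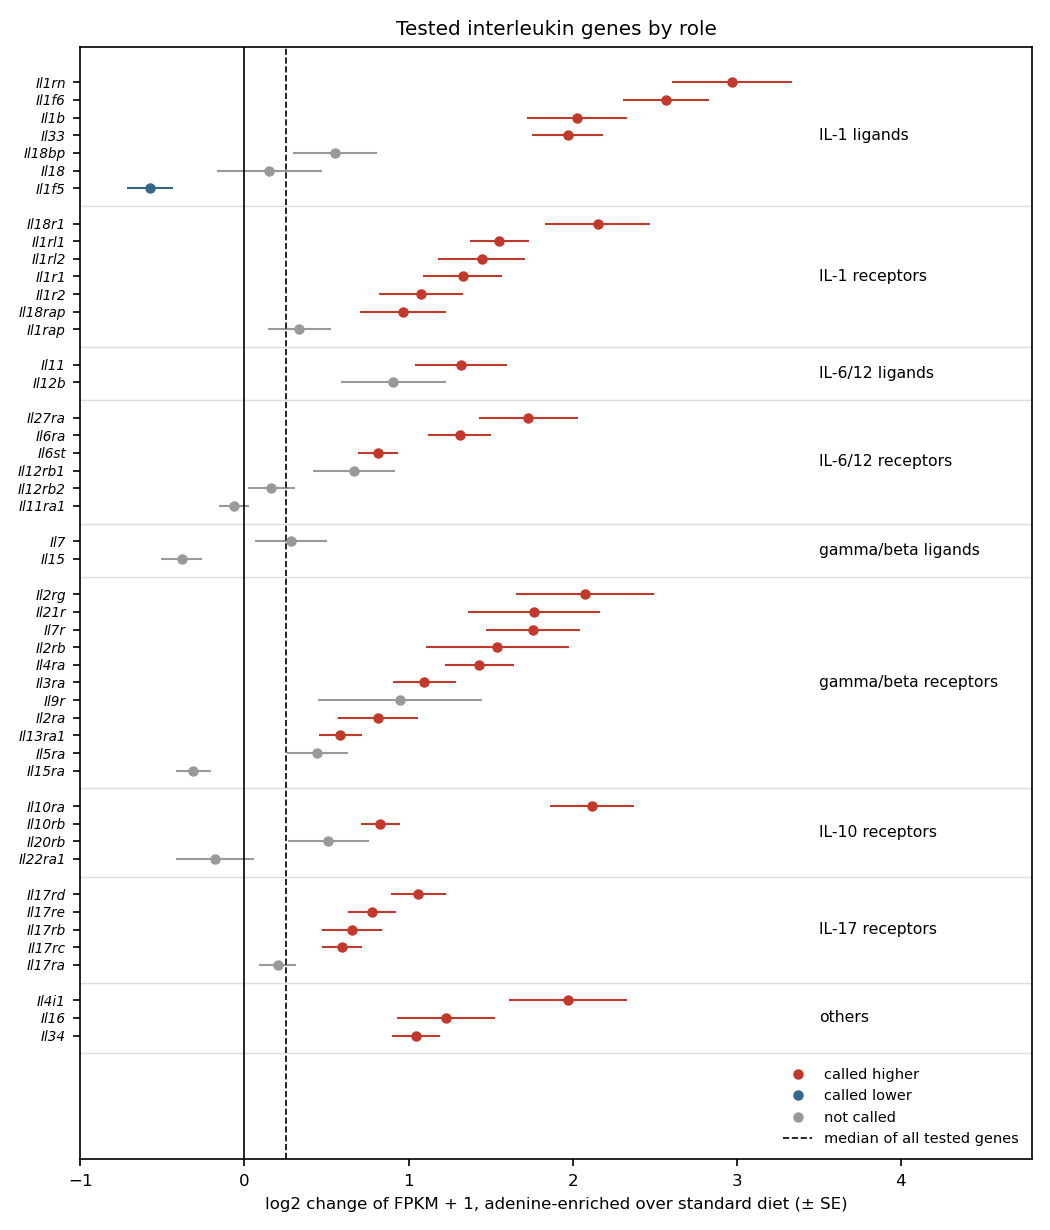
Log2 change of FPKM + 1, adenine-enriched over standard diet, with its standard error, for the 47 tested interleukin genes by role (n = 3 libraries each). Red points are called higher (31), blue lower (1) and grey not called (15); the dashed line is the median of all tested genes, 0.25.

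Before the values, 4 upstream stretches are shown, chosen because these 4 genes include the antagonists and the IL-6 family ligands described below: 250 bases ahead of a RefSeq transcription start (GRCm38.p6), in lower case, with matches to NF-kappaB, AP-1 or C/EBP consensus letters in capitals.
Il6, chr5:30012864-30013113, plus strand: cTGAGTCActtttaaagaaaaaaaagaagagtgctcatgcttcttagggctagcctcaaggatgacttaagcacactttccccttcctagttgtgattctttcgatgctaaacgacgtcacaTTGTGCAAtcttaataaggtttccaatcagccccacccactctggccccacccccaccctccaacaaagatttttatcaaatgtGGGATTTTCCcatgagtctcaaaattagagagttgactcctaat
Il1rn, chr2:24345121-24345370, plus strand: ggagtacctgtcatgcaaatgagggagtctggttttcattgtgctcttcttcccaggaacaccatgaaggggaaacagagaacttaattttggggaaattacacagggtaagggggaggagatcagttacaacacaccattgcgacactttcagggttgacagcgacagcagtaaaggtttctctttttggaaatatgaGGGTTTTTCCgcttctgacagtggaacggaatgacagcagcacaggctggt
Il11, chr7:4778142-4778391, minus strand: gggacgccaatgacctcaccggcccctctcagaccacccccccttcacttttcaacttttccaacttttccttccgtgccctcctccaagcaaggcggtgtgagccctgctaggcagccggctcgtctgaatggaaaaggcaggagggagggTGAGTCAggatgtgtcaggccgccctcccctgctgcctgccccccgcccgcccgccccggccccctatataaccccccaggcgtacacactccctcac
Il1f5, chr2:24276704-24276953, plus strand: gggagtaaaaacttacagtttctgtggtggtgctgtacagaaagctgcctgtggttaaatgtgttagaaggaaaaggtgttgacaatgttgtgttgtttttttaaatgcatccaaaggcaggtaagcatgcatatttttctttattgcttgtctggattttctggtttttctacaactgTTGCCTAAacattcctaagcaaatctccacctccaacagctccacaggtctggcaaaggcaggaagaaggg
In Il6 the capitals are an AP-1 match 249 to 243 bases, a C/EBP match 128 to 121 bases and an NF-kappaB match 44 to 35 bases ahead of the start. In Il1rn the NF-kappaB match lies 51 to 42 bases ahead, in Il11 the AP-1 match 98 to 92 bases and in Il1f5 the C/EBP match 71 to 64 bases. Each stretch shown is from a start with a match, and other listed starts differed. Those of Il1rn held an AP-1 match (141 to 135 bases ahead) or no match, and another start of Il11 held none. Another start of Il1f5 held a STAT match (98 to 90 bases ahead). The stretch ahead of Il1b, not shown, held no match. Both strands were searched at every listed start of a gene, with any base allowed at N. The NF-kappaB letters were GGGNNTTNCC. Those of STAT were TTCNNNGAA and those of C/EBP TTGCNNAA. For AP-1 the letters were TGANTCA. Of the 31 genes called higher 25 are in the promoter table, and 5 hold the NF-kappaB letters, 3 the STAT, 4 the AP-1 and 7 the C/EBP letters. Among 27025 genes of the table the shares were 4.71%, 8.13%, 7.82% and 10.8%. These are matches of letters only, and nothing about binding of a factor was measured.

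Ligands of the IL-1 family held 4 of the rises and the only fall among the interleukin rows called as deposited. Of the 12 rows 7 were tested, with 4 higher, 1 lower and a median log2 change of 1.97. Il1b, the secreted form made by activated myeloid cells, was at 12.4, 13.0 and 6.53 FPKM on adenine, against 1.35, 1.37 and 2.76 FPKM on the standard diet. Every adenine library was above every standard library, the nearest being adenine 3 and standard 3. The means were 10.6 ± 3.57 FPKM on adenine and 1.83 ± 0.807 FPKM on the standard diet (SD, n = 3 each), 5.83-fold higher on adenine, with a log2 change of 2.03 ± 0.30 (SE) and a limma adjusted p of 0.00722. Il1b overlaps an antisense gene, Il1bos, which was at most 0.213 FPKM, and the strand used in counting is not given in the sources used here. Il1a was below the filter and untested at 1.03, 0.772 and 0.413 FPKM on adenine, against 0.108, 0.131 and 0.132 FPKM on the standard diet, without overlap.

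Il1rn, the secreted receptor antagonist of IL-1, had the largest log2 change of the 47 with the pseudocount of 1 (with 0.1, Il1f6 was above it at 5.43 against 4.96). It was at 9.83, 12.9 and 4.05 FPKM in the adenine libraries, against 0.113, 0.243 and 0.140 FPKM in the standard libraries. The antagonist was thus scarce on the standard diet, while on adenine its mean came close to that of Il1b, 8.93 against 10.6 FPKM. The means of Il1rn, 8.93 ± 4.49 FPKM on adenine and 0.166 ± 0.0687 FPKM on the standard diet, differed 53.9-fold (log2 change 2.97 ± 0.36, limma adjusted p = 0.00489).

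Il33, the nuclear alarmin released when epithelial and stromal cells are damaged, was at 22.8, 20.8 and 13.6 FPKM on adenine, against 4.29, 3.21 and 4.68 FPKM on the standard diet. It was the most abundant IL-1 family ligand in both diets, and its groups lay far apart. Its means of 19.1 ± 4.82 FPKM on adenine and 4.06 ± 0.764 FPKM on the standard diet differed 4.70-fold (log2 change 1.97 ± 0.22, limma adjusted p = 0.00419). Il18, an epithelial cytokine, did not pass the test: 3.34, 1.68 and 1.26 FPKM on adenine against 1.97, 0.887 and 2.43 FPKM on the standard diet overlapped. Its log2 change of 0.15 ± 0.32 (limma adjusted p = 0.722) turned to −0.05 with median-of-ratios scaling, −0.35 with quantile normalization, −0.12 without adenine 1 and −0.10 without standard 2. The IL-18 binding protein Il18bp, a soluble inhibitor, overlapped too, at 7.82, 4.97 and 3.78 FPKM on adenine against 3.34, 2.57 and 4.17 FPKM on the standard diet (limma adjusted p = 0.132).

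The IL-36 genes lie together on chromosome 2 (24153161 to 24351494, in the coordinates of the table) with Il1f10 and Il1rn, and they went apart. Il1f6, which encodes IL-36 alpha, was at 4.08, 8.18 and 3.83 FPKM on adenine, against 0.0708, 0 and 0 FPKM on the standard diet, the value of standard 1 being about 1 fragment. It was thus at or under the level of 3 fragments in all standard libraries and clearly detected in all adenine libraries (log2 change 2.57 ± 0.26, limma adjusted p = 0.00395). Il1f9, IL-36 gamma, was untested at 0.681, 0.975 and 0.318 FPKM on adenine against 0.0337, 0 and 0 FPKM on the standard diet. Il1f8, IL-36 beta, was above 0 in adenine 1 and adenine 2 only, and Il1f10 was at 0 in all 6 libraries.

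Il1f5, which encodes the IL-36 receptor antagonist, went the other way. It was at 0.417, 0.228 and 0.187 FPKM on adenine, against 0.896, 0.972 and 0.828 FPKM on the standard diet. The groups did not overlap, with about 8.6 to 25.0 fragments in each adenine library and 37.7 to 47.7 in each standard library. The means were 0.277 ± 0.122 FPKM on adenine and 0.898 ± 0.0721 FPKM on the standard diet, and the log2 change was −0.58 ± 0.14 (limma adjusted p = 0.0240). The call ended without adenine 2 (adjusted p = 0.0916) and without standard 1, 2 or 3 (adjusted p = 0.0691, 0.0770 and 0.0625). So in these kidneys 1 agonist of the IL-36 receptor was called higher and its antagonist lower, while the IL-1 agonist Il1b and the IL-1 antagonist Il1rn were both called higher. Il1f6 passed the filter only through the adenine libraries and Il1f5 only through the standard libraries. Of the genes next to the cluster, Psd4 was higher (log2 change 1.55), Hnmt lower (−0.53) and Pax8 not called (0.05).

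**Figure D2:**
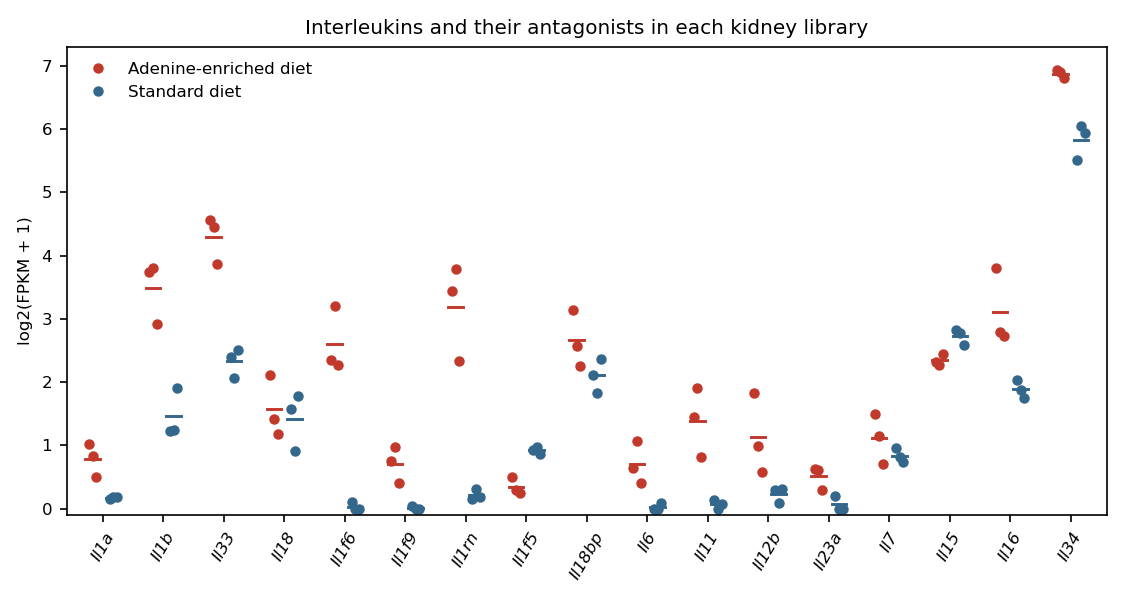
FPKM per library, as log2(FPKM + 1), of 17 interleukin ligands and antagonists; each point is a library and each bar the mean of the 3 log2 values, adenine-enriched diet left of standard diet. Il1f5 and Il15 have all adenine points below all standard points, and Il18, Il18bp and Il7 overlap. All other genes shown, Il1b, Il1rn, Il1f6 and Il33 among them, have all adenine points above.

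Receptors of the IL-1 family were higher in 6 of 7 tested (median log2 change 1.33), and those 6 are neighbours on the plus strand of chromosome 1, between 40084768 and 40551705. In order along the chromosome they are Il1r2, Il1r1, Il1rl2, Il1rl1, Il18r1 and Il18rap. Il1r1, the signalling receptor of IL-1, was at 13.6, 11.6 and 7.05 FPKM on adenine, against 3.83, 3.95 and 2.90 FPKM on the standard diet (3.02-fold, log2 change 1.33 ± 0.24, limma adjusted p = 0.0105). Il1r2, the decoy receptor, was at 2.30, 1.69 and 0.697 FPKM on adenine against 0.215, 0.101 and 0.204 FPKM on the standard diet (log2 change 1.07 ± 0.26, limma adjusted p = 0.0218). The signalling receptor was the more abundant of these in every library, and neither had overlapping groups. The call of Il1r2 ended without adenine 2 (adjusted p = 0.0767) and without standard 1, 2 or 3 (adjusted p = 0.0607, 0.0685 and 0.0627).

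Il1rl1, the receptor of IL-33, was at 3.45, 2.50 and 2.08 FPKM on adenine, against 0.355, 0.148 and 0.222 FPKM on the standard diet. It differed 11.1-fold (log2 change 1.55 ± 0.18, limma adjusted p = 0.00445), so both Il33 and its receptor were called higher. Il1rl2, the IL-36 receptor, was at 4.8, 3.96 and 1.92 FPKM on adenine against 0.700, 0.589 and 0.531 FPKM on the standard diet (5.86-fold, log2 change 1.45 ± 0.26, limma adjusted p = 0.0108). Il18r1, the binding chain for IL-18, was at 9.61, 5.85 and 3.28 FPKM on adenine against 0.422, 0.522 and 0.632 FPKM on the standard diet. That is an 11.9-fold difference (log2 change 2.15 ± 0.32, limma adjusted p = 0.00710), where the ligand Il18 was not called. Il18rap, its accessory chain, was at 3.40, 2.32 and 1.20 FPKM on adenine against 0.675, 0.478 and 0.741 FPKM on the standard diet (log2 change 0.97 ± 0.26, limma adjusted p = 0.0317). Its call ended without any library but adenine 3 (adjusted p = 0.0593, 0.0966, 0.0788, 0.0925 and 0.0758 without adenine 1, adenine 2, standard 1, standard 2 and standard 3) and with quantile normalization (adjusted p = 0.101). Median-of-ratios scaling kept the call of Il18rap (adjusted p = 0.0439), and with the replicate block added to it the adjusted p was 0.0603.

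The accessory chain Il1rap, which IL-1, IL-33 and IL-36 receptors share, lies on chromosome 16 and did not pass. It was at 5.89, 4.61 and 3.34 FPKM on adenine, against 3.42, 3.76 and 2.97 FPKM on the standard diet, with overlap. Its log2 change of 0.34 ± 0.19 (limma adjusted p = 0.209) was −0.17 with quantile normalization, and it passed without adenine 3 (0.51, adjusted p = 0.0479). Beside the chromosome 1 cluster, Map4k4 was called higher (log2 change 1.00, limma adjusted p = 0.00759), and Slc9a4, Slc9a2 and Mfsd9 were not called (0.47, −0.16 and −0.14).

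Among ligands of the IL-6 and IL-12 families, Il11 was called higher, Il12b was tested and not called, and the others were below the filter. Il11, a cytokine of stromal and epithelial cells in fibrosing tissue, was at 1.74, 2.75 and 0.752 FPKM on adenine, against 0.0938, 0 and 0.0533 FPKM on the standard diet. All adenine libraries stood above the standard libraries, which held at most a few fragments (log2 change 1.32 ± 0.28, limma adjusted p = 0.0157). Without standard 2 the adjusted p was 0.0535 and without standard 3 it was 0.0517. Il6, the acute-phase cytokine, was below the filter and untested at 0.554, 1.10 and 0.327 FPKM on adenine against 0, 0 and 0.0686 FPKM on the standard diet. Il23a, a subunit of IL-23, was untested at 0.545, 0.525 and 0.222 FPKM on adenine against 0.152, 0 and 0 FPKM on the standard diet. Il12b, the subunit that IL-12 and IL-23 share, had no overlap but missed the threshold: 2.57, 0.990 and 0.490 FPKM on adenine against 0.220, 0.0667 and 0.235 FPKM on the standard diet (log2 change 0.91 ± 0.32, limma adjusted p = 0.0646). It passed without adenine 3 (adjusted p = 0.0194) and with a pseudocount of 0.1 (adjusted p = 0.0375).

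Their receptors were higher in 3 of 6 tested (median log2 change 0.74). Il6st, or gp130, was the second most abundant interleukin row, at 76.7, 74.2 and 57.9 FPKM on adenine, against 37.2, 40.4 and 39.1 FPKM on the standard diet. It differed 1.79-fold without overlap (log2 change 0.82 ± 0.12, limma adjusted p = 0.00725). Il6ra, the IL-6 binding chain, was at 7.49, 5.88 and 4.76 FPKM on adenine against 1.72, 2.29 and 1.46 FPKM on the standard diet (3.31-fold, log2 change 1.31 ± 0.19, limma adjusted p = 0.00698). Il27ra, the receptor of IL-27 on lymphocytes, was at 6.61, 3.0 and 2.42 FPKM on adenine against 0.428, 0.403 and 0.425 FPKM on the standard diet (9.59-fold, log2 change 1.73 ± 0.30, limma adjusted p = 0.00953). The adenine libraries lay above the standard libraries for each of these 3 chains.

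The IL-11 receptor Il11ra1 did not follow its ligand: 32.9, 30.0 and 35.5 FPKM on adenine against 35.8, 33.8 and 33.1 FPKM on the standard diet overlapped (log2 change −0.06 ± 0.09, limma adjusted p = 0.591). With median-of-ratios scaling it was called lower (−0.36, adjusted p = 0.0477). Its row spans several other expressed genes, among them Galt and Dctn3, and the near copy Il11ra2 was at 0, so reads of these genes cannot be told apart with certainty. Il12rb1 had no overlap but missed the threshold (1.64, 0.497 and 0.485 FPKM on adenine against 0.110, 0.139 and 0.161 FPKM on the standard diet, limma adjusted p = 0.0759), and passed with a pseudocount of 0.1 (adjusted p = 0.0412). Il12rb2 overlapped between diets, at a log2 change of 0.16 ± 0.14 as deposited (limma adjusted p = 0.390) and −0.24 with quantile normalization.

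Of the ligands of common gamma chain, IL-13 and common beta chain receptors, Il15 and Il7 were abundant enough to test and neither was called, while 8 of 11 tested receptor chains were higher (median log2 change 1.10). Il2rg, the common gamma chain of lymphocytes and myeloid cells, was at 30.7, 15.4 and 8.02 FPKM on adenine, against 3.12, 2.98 and 2.81 FPKM on the standard diet. The adenine libraries spread over a far wider range than the standard libraries and lay above them (6.07-fold, log2 change 2.08 ± 0.42, limma adjusted p = 0.0139). Il7r, which marks naive and memory T cells and innate lymphoid cells, was at 5.60, 2.33 and 2.51 FPKM on adenine against 0.427, 0.152 and 0.209 FPKM on the standard diet (13.3-fold, log2 change 1.76 ± 0.28, limma adjusted p = 0.00812). Il4ra, the chain that IL-4 and IL-13 share, was at 20.3, 15.5 and 10.9 FPKM on adenine against 4.97, 5.24 and 4.72 FPKM on the standard diet (3.13-fold, log2 change 1.43 ± 0.21, limma adjusted p = 0.00692). The SD of Il4ra was 4.66 FPKM among the adenine libraries and 0.259 FPKM among the standard libraries. Il3ra, the IL-3 binding chain, was at 2.60, 1.79 and 1.41 FPKM on adenine against 0.519, 0.228 and 0.323 FPKM on the standard diet (log2 change 1.10 ± 0.19, limma adjusted p = 0.00997).

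The calls of the other 4 chains ended when any of several single libraries was left out. In those fits calls over the whole table fell too, from 5637 to 2119 without adenine 2. They fell to 2915, 2929 and 2789 without standard 1, 2 and 3. Il21r, the IL-21 receptor of lymphocytes, was at 10.7, 4.36 and 2.73 FPKM on adenine, against 0.893, 0.590 and 0.980 FPKM on the standard diet (log2 change 1.77 ± 0.40, limma adjusted p = 0.0192). Its adjusted p was 0.0546 without adenine 2 and 0.0566, 0.0632 and 0.0549 without standard 1, 2 and 3. Il2rb, the beta chain of the IL-2 and IL-15 receptors on T and NK cells, was at 12.03, 3.47 and 3.29 FPKM on adenine against 0.872, 1.14 and 1.53 FPKM on the standard diet (log2 change 1.54 ± 0.44, limma adjusted p = 0.0353). In both genes adenine 1 stood far above the other adenine libraries, which were still above every standard library. Without adenine 2 the adjusted p of Il2rb was 0.0575, and without standard 1, 2 and 3 it was 0.0981, 0.0901 and 0.0774; with quantile normalization it was 0.0933 and without a filter 0.0607. Median-of-ratios scaling kept the call of Il2rb (adjusted p = 0.0484), and with the replicate block added to it the adjusted p was 0.0684.

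Il2ra, the high-affinity IL-2 chain of regulatory and activated T cells, was at 2.05, 0.782 and 0.696 FPKM on adenine, against 0.205, 0.181 and 0.195 FPKM on the standard diet (log2 change 0.81 ± 0.25, limma adjusted p = 0.0427). The call ended under median-of-ratios scaling (adjusted p = 0.0507), under quantile normalization (adjusted p = 0.133), without a filter (adjusted p = 0.0541), without adenine 2 (adjusted p = 0.0759) and without standard 1, 2 or 3 (adjusted p = 0.10, 0.106 and 0.106). Il13ra1, the IL-13 chain found on many non-lymphoid cells, was among the abundant rows at 42.4, 44.8 and 35.9 FPKM on adenine against 24.3, 25.7 and 31.3 FPKM on the standard diet (1.51-fold, log2 change 0.58 ± 0.13, limma adjusted p = 0.0184). Its groups lay close, adenine 3 and standard 3 being nearest. The call ended with median-of-ratios scaling (0.29, adjusted p = 0.159) and quantile normalization (0.43, adjusted p = 0.0510), and without adenine 2, standard 1 or standard 2 (adjusted p = 0.0703, 0.0602 and 0.0624). Il9r and Il5ra were not called; Il9r was at 4.05 FPKM in adenine 1 and 0.271 and 0.596 FPKM in the other two adenine libraries, against 0.241, 0.103 and 0.0423 FPKM on the standard diet (limma adjusted p = 0.173).

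IL-15 and its private receptor chain had every adenine library below every standard library. Il15, made by tubule cells and myeloid cells, was at 4.0, 3.80 and 4.47 FPKM on adenine, against 6.07, 5.84 and 5.02 FPKM on the standard diet (log2 change −0.38 ± 0.12, limma adjusted p = 0.0526). Il15ra, which presents IL-15 to neighbouring cells, was at 11.3, 9.31 and 9.58 FPKM on adenine against 12.3, 13.2 and 12.7 FPKM on the standard diet (log2 change −0.31 ± 0.11, limma adjusted p = 0.0601). Neither passed at the settings above. Il15 was called lower without adenine 3 (adjusted p = 0.0430), with a pseudocount of 0.1 (adjusted p = 0.0472), with a filter of a mean of at least 1 FPKM (adjusted p = 0.0489) and without a variance trend (adjusted p = 0.0404), and Il15ra without adenine 1 (adjusted p = 0.0437). With median-of-ratios scaling both were called lower (Il15 −0.63, adjusted p = 0.0131; Il15ra −0.59, adjusted p = 0.00851), and with quantile normalization as well (Il15 −0.86, adjusted p = 0.0132; Il15ra −0.67, adjusted p = 0.00825). Il7, the stromal growth factor of T cells, overlapped (1.81, 1.21 and 0.637 FPKM on adenine against 0.935, 0.753 and 0.669 FPKM on the standard diet, limma adjusted p = 0.336), with a log2 change of 0.28 ± 0.22 as deposited and −0.17 with quantile normalization.

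In the IL-10 family both chains of the IL-10 receptor were higher, 2 of 4 tested receptors. Il10ra, the binding chain of leukocytes, was at 19.3, 10.6 and 9.67 FPKM on adenine, against 2.25, 2.28 and 1.87 FPKM on the standard diet (6.18-fold, log2 change 2.12 ± 0.25, limma adjusted p = 0.00475). Il10rb, the broadly expressed chain shared with IL-22 and interferon lambda receptors, was at 50.2, 43.0 and 39.0 FPKM on adenine against 25.7, 25.1 and 22.0 FPKM on the standard diet (1.82-fold, log2 change 0.83 ± 0.12, limma adjusted p = 0.00646). Neither had overlapping groups. Il10 was untested and barely detected at 0.283, 0.155 and 0.0528 FPKM on adenine against 0, 0.0551 and 0 FPKM on the standard diet. Il22ra1, the epithelial IL-22 receptor, overlapped at 0.714, 0.552 and 1.15 FPKM on adenine against 1.16, 1.54 and 0.518 FPKM on the standard diet (log2 change −0.18 ± 0.24, limma adjusted p = 0.559), and so did Il20rb (limma adjusted p = 0.145), which passed without adenine 3 (adjusted p = 0.0230).

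Of the IL-17 receptors 4 of 5 were higher (median log2 change 0.66), while none of the 5 ligand rows of the family reached the filter. No row was named Il17c, so that ligand was not measured here. Il17rd, a less studied member that modulates IL-17 signalling, was at 5.36, 5.11 and 3.70 FPKM on adenine, against 1.93, 1.80 and 1.46 FPKM on the standard diet (2.73-fold, log2 change 1.06 ± 0.17, limma adjusted p = 0.00762). Il17re, the epithelial receptor of IL-17C, was at 9.86, 9.74 and 8.84 FPKM on adenine against 5.23, 6.14 and 4.14 FPKM on the standard diet (1.83-fold, log2 change 0.78 ± 0.15, limma adjusted p = 0.0120). Il17rc, which pairs with Il17ra to bind IL-17A and IL-17F, was at 17.4, 15.4 and 13.3 FPKM on adenine against 10.2, 10.2 and 9.03 FPKM on the standard diet (1.57-fold, log2 change 0.59 ± 0.12, limma adjusted p = 0.0147). In these 3 genes every adenine library stood above every standard library. Il17rb, the receptor of IL-25, was at 10.3, 7.62 and 6.91 FPKM on adenine against 5.70, 4.84 and 4.03 FPKM on the standard diet (1.70-fold, log2 change 0.66 ± 0.18, limma adjusted p = 0.0329).

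Of these 4, Il17rd kept its call in all alternatives run. The call of Il17re ended with quantile normalization (adjusted p = 0.0664) and without adenine 2 (adjusted p = 0.0522), and that of Il17rc with quantile normalization (adjusted p = 0.0666) and without adenine 2 (adjusted p = 0.0589) or standard 3 (adjusted p = 0.0501). The call of Il17rb ended under median-of-ratios scaling (adjusted p = 0.0791), under quantile normalization (adjusted p = 0.198), without a filter (adjusted p = 0.0551) and without any library but adenine 3 (adjusted p = 0.0738, 0.0821, 0.0529, 0.0855 and 0.0954 without adenine 1, adenine 2, standard 1, standard 2 and standard 3). Il17ra, the chain shared by most IL-17 receptors, was at 11.1, 10.6 and 9.30 FPKM on adenine, against 8.05, 9.51 and 8.93 FPKM on the standard diet. Its groups overlapped, and its log2 change was 0.20 ± 0.11 as deposited (limma adjusted p = 0.194), −0.07 with median-of-ratios scaling and −0.20 under quantile normalization. Il17a was at 0 in all 6 libraries, where 3 fragments at the lowest depth would be 0.179 FPKM.

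Outside these families, Il34 was the most abundant interleukin row in the kidney. IL-34, a ligand of the macrophage growth factor receptor Csf1r that tubule cells make, was at 121, 118 and 111 FPKM on adenine, against 44.9, 64.9 and 60.5 FPKM on the standard diet. The adenine libraries differed little from each other and lay well above the standard libraries. The means were 117 ± 5.30 FPKM on adenine and 56.8 ± 10.5 FPKM on the standard diet, 2.06-fold higher on adenine (log2 change 1.05 ± 0.15, limma adjusted p = 0.00629). Its receptor gene Csf1r was also higher, at 67.6 ± 8.80 FPKM on adenine and 27.2 ± 1.46 FPKM on the standard diet (SD, n = 3 each; log2 change 1.28, limma adjusted p = 0.00329), and Csf1r is one of the macrophage markers below.

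Il16, a chemoattractant of CD4+ cells made by lymphocytes, was at 13.0, 5.95 and 5.66 FPKM on adenine, against 3.09, 2.66 and 2.36 FPKM on the standard diet (3.04-fold, log2 change 1.23 ± 0.30, limma adjusted p = 0.0228). Adenine 1 was far above the other adenine libraries. The call ended with quantile normalization (adjusted p = 0.0614) and without standard 1, 2 or 3 (adjusted p = 0.0566, 0.0664 and 0.0736). Il4i1, a secreted amino acid oxidase of antigen-presenting cells that bears an interleukin name without being one, was at 14.3, 5.76 and 4.99 FPKM on adenine against 1.26, 0.855 and 1.43 FPKM on the standard diet (7.05-fold, log2 change 1.97 ± 0.36, limma adjusted p = 0.0108). Il4i1 shares 14440 bp of its span with Nup62 on the same strand, and Il16 overlaps Stard5 on the other strand, so their reads may not be fully separated.

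Below the filter, 17 rows were above 0 in 3 or more libraries and were not tested. All adenine libraries stood above all standard libraries in 9 of these, all below in none, and 8 overlapped, where 26.3% of the table's rows in the same range had all adenine libraries above. Besides Il1a, Il1f9, Il6 and Il23a, those with an adenine mean of at least 0.2 FPKM were Il24, Il17d, Il4 and Il21. Il24, an IL-10 family cytokine, was at 0.403, 0.291 and 0.142 FPKM on adenine and at 0 in the 3 standard libraries. Il17d overlapped at 0.297, 0.712 and 0.453 FPKM on adenine against 0.445, 0.234 and 0.238 FPKM on the standard diet, as did the T helper cytokine Il4 at 0.123, 0.142 and 0.393 FPKM on adenine against 0, 0 and 0.157 FPKM on the standard diet. Il21, a cytokine of follicular helper T cells, was at 0.586 FPKM in adenine 1, or about 38.3 fragments, and at 0.0150 and 0 FPKM in adenine 2 and adenine 3, against 0.0168, 0.0210 and 0 FPKM on the standard diet. The adenine 1 value of Il21 thus stands alone.

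Over all 64 rows described, 43 had every adenine library above every standard library (40.5% of 19855 rows of the table did), 3 had every one below (10% of the table) and 18 overlapped. The 3 below were Il1f5, Il15 and Il15ra. Of the 18 rows above 0 in fewer than 3 libraries, 10 were at 0 in all, among them Il17a, Il20, Il3, Il9, Il31 and the decoy receptor Il13ra2, and 8 had values in 1 or 2 libraries, among them Il2, Il13, Il22 and Il25. A value of 0 here allows levels up to the 3-fragment floor, which for Il9 is 0.516 FPKM and for Il13ra2 0.0840 FPKM, and covers counting error only.

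The 3 adenine libraries were not alike in these genes. Among the 31 rows called higher, adenine 1 was the highest adenine library in 26 and adenine 2 in 5 (Il1b, Il1rn, Il1f6, Il11 and Il13ra1), and adenine 3 was the lowest in 30. That is 83.9% of the interleukin rows called higher for adenine 1, against 80.3% of all rows called higher. The median ratio of adenine 1 to adenine 3 was 1.94 over the interleukin rows called higher and 1.38 over all rows called higher. It was above 2 in 14 of the 31, with Il21r (3.92), Il2rg (3.83) and Il2rb (3.66) at the top, and it was 1.09 for Il34 and 1.06 for Il1f6. Shares of all rows called higher with adenine 3 lowest, or with this ratio above 2, were not worked out.

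Marker lists of cell types, summed in FPKM, also differed among the adenine libraries, and their part in the interleukin results was not tested. Macrophage markers, 8 of 8 higher, were at 756 to 1739 on adenine (highest in adenine 1) and 101 to 127 on the standard diet. T cell markers, 5 of 7 higher, were at 18.3 to 72.1 on adenine and 3.83 to 5.91 on the standard diet, again with adenine 1 at the top. None of 4 B cell markers was called by limma (0 at an unadjusted p below 0.05): they were at 52.1 in adenine 1 and 3.83 and 3.57 in adenine 2 and 3, against 0.757 to 4.52 on the standard diet. The library with the highest Il2rb, Il21r, Il21 and Il9r, adenine 1, was also the library with the most T and B cell marker RNA. This is not particular to lymphocytes. Adenine 1 was the highest adenine library for the macrophage, dendritic cell and fibroblast lists too, and for 80.3% of all rows called higher. Dendritic cell markers, 5 of 5 higher, were at 20.2 to 35.3 on adenine and 6.48 to 7.33 on the standard diet, and fibroblast markers, 3 of 3 higher, at 146 to 265 on adenine and 28.9 to 49.0 on the standard diet. Neutrophil markers were at 12.9 to 36.8 on adenine, highest in adenine 2, and 2.95 to 12.3 on the standard diet, highest in standard 3. Of these markers 1 of 3 tested was higher and Ly6g was at 0 in the standard libraries. The order of the neutrophil sums followed S100a8 and S100a9. Among the adenine libraries Csf3r, Ly6g and Retnlg were highest in adenine 1, and Mpo was at 0 in all of them. Adenine 2 and standard 3 also had the most Il1b of their diets, with adenine 1 close to adenine 2 (12.4 and 13.0 FPKM).

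Mast cell and basophil markers (0.703 to 1.97 on adenine, 0 to 0.223 on the standard diet, Fcer1a at 0 throughout) and NK cell markers (0.386 to 1.88 on adenine, 0.321 to 0.599 on the standard diet) were too low to test. Of the resident cells, proximal tubule markers were lower in 4 of 5 (452 to 1106 on adenine, lowest in adenine 1, and 1338 to 1916 on the standard diet). The 2 thick ascending limb markers went apart. Slc12a1 was lower (421 FPKM on adenine, 689 FPKM on the standard diet, log2 change −0.72). Umod was not called, but every adenine library was above every standard library. Umod made up most of their sum (3246 to 3989 on adenine, 3110 to 3313 on the standard diet). Both podocyte markers were higher (41.0 to 49.8 on adenine, 24.3 to 31.2 on the standard diet). Neither principal cell marker was called by limma (0 at an unadjusted p below 0.05; 88.5 to 105 on adenine, 66.6 to 165 on the standard diet). No endothelial marker of 3 was called by limma (1 higher and 1 lower at an unadjusted p below 0.05; 69.3 to 74.2 on adenine, 58.2 to 70.6 on the standard diet).

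**Figure D3:**
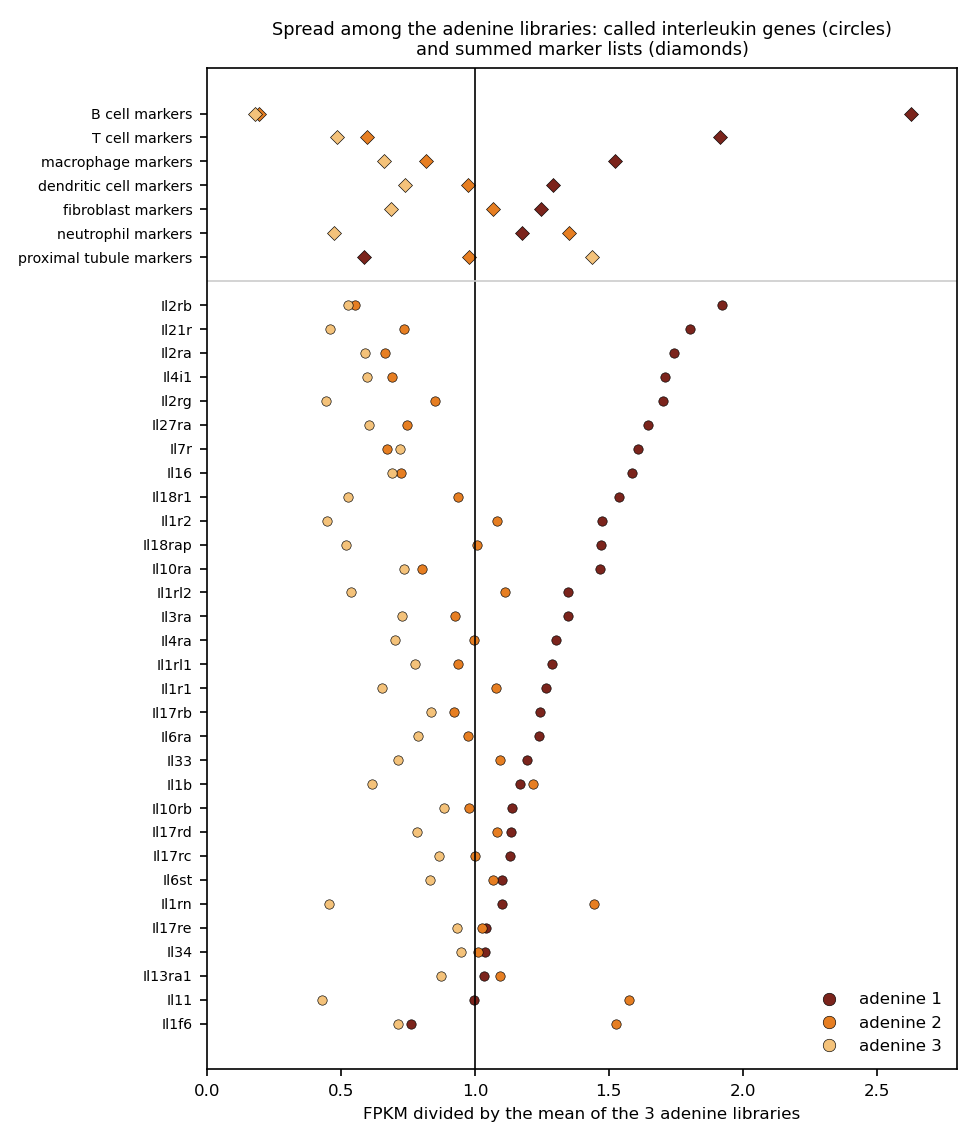
FPKM in each adenine library divided by the mean of the 3 adenine libraries, for the 31 interleukin genes called higher (circles) and for summed marker lists (diamonds). Adenine 1 lies right of the line at 1 for most genes and for every marker list shown except that of the proximal tubule. Il34 and Il1f6 have adenine 1 within 1.09 times of adenine 3.

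Genes that act with interleukins under other names were taken from 5 lists of 61 genes, of which 60 were tested: 42 were higher (70.0%, median log2 change 1.02) and 18 not called, where 29.7% of all rows were called higher and their median log2 change was 0.25. None was lower by limma (0 at an unadjusted p below 0.05). With median-of-ratios scaling 34 were higher, where 16.8% of all rows were, and 1, Lifr, was lower (−0.49, adjusted p = 0.0241), and with quantile normalization Tslp was lower too (−0.57, adjusted p = 0.0462).

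IL-6 family genes under other names were higher in 6 of 9 tested. Lif, a cytokine that signals through gp130, was at 5.65, 7.33 and 4.22 FPKM on adenine, against 0.0806, 0.0926 and 0.186 FPKM on the standard diet (47.9-fold, log2 change 2.56, limma adjusted p = 0.00296). Osmr, the oncostatin M receptor chain that pairs with gp130, differed 6.06-fold (26.3 ± 5.74 FPKM on adenine, 4.34 ± 1.22 FPKM on the standard diet). Lif was thus well above Il6 and Il11 in every adenine library.

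Of genes that process IL-1 family ligands or carry their signal, 10 of 15 were higher. Casp4, the mouse caspase-11 that senses lipopolysaccharide, was at 24.1, 18.0 and 11.2 FPKM on adenine, against 2.59, 2.24 and 2.09 FPKM on the standard diet (7.71-fold, log2 change 2.45, limma adjusted p = 0.00405). The pore former Gsdmd (log2 change 1.53) and the inflammasome adaptor Pycard (1.31) followed. The JAK, STAT and SOCS list had 8 of 15 higher, and Socs3, the feedback inhibitor that gp130 signalling induces, had the largest log2 change of all 5 lists with the pseudocount of 1 (with 0.1, Lif was above it at 4.73 against 4.46): 38.1, 29.3 and 18.1 FPKM on adenine against 1.21, 1.15 and 1.07 FPKM on the standard diet (24.9-fold, log2 change 3.72, limma adjusted p = 0.00295). Jak3, the kinase bound to the common gamma chain, and Stat3, the main STAT of gp130, had log2 changes of 1.66 and 1.49.

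In the IL-17 and NF-kappaB list 11 of 13 were higher, led by Relb (log2 change 2.15), Nfkb2 (1.99) and Nfkbiz (1.92), a cofactor of NF-kappaB induced by IL-17 and IL-1. Chains and ligands shared with interleukins were higher in 7 of 8. The leading gene was Cd74, which is the MHC class II invariant chain as well as a cytokine receptor, at 1096 ± 436 FPKM on adenine and 202 ± 29.2 FPKM on the standard diet. It was followed by Csf2rb (log2 change 2.19), the common beta chain of the IL-3, IL-5 and GM-CSF receptors, and Csf2ra (2.08), the GM-CSF binding chain. Tslp, an epithelial cytokine that uses Il7r, was not called (0.444 ± 0.122 FPKM on adenine, 0.637 ± 0.271 FPKM on the standard diet). Several genes of these lists, Csf1r and Cd74 among them, are also abundant in macrophages, whose markers were higher in all adenine libraries.

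**Figure D4:**
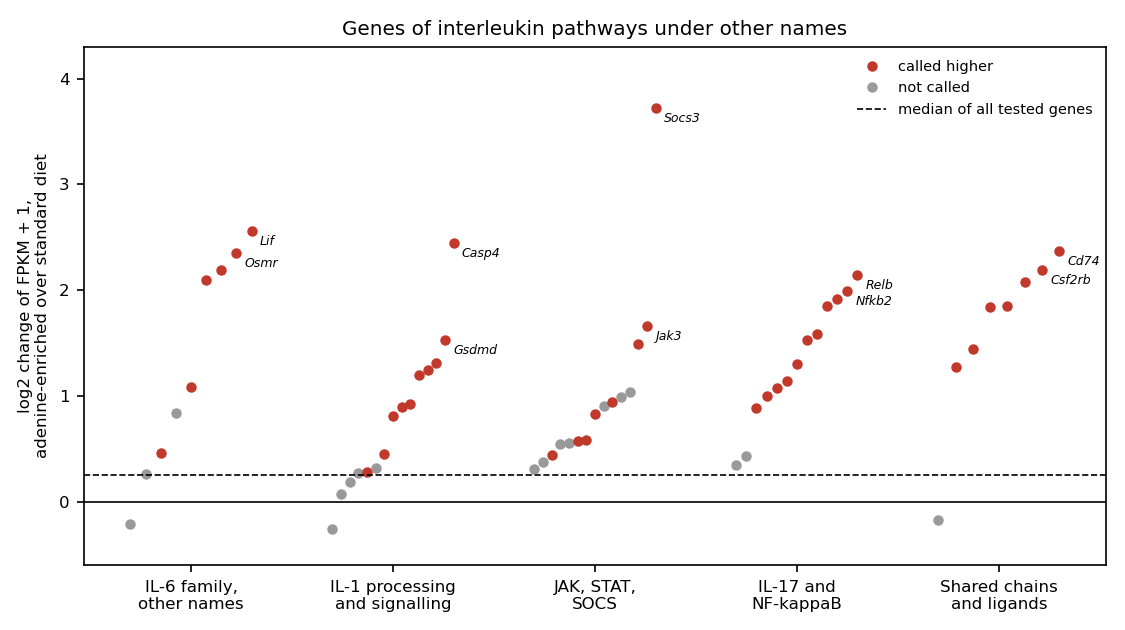
Log2 change of FPKM + 1, adenine-enriched over standard diet, for the 60 tested genes of 5 pathway lists, each point a gene (n = 3 libraries each). Red points are called higher and grey points not called; the dashed line is the median of all tested genes, 0.25, and Socs3 at 3.72 is the highest point.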

How the data were processed

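Total RNA of whole kidneys was sequenced as paired reads of 100 bases from random-primed libraries, per the labels' protocols. Cufflinks 2.1.1, TopHat and bcl2fastq 2.0 are listed in the submitters' processing notes, as are the builds GRCm38 and mm10; no source used here gives the annotation or the counting strand. The authors deposited FPKM values per gene for the 6 libraries, with positions, which are printed as they stand. Another table was not used, as its 6 value columns match no listed sample. All 82 member identifiers are in GENCODE M21.

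FPKM keep no counts. Steps between low values gave an approximate depth (nominal fragment of 200 bp), but only 65.4% to 74.8% of values lay within 0.15 of whole fragments, so no count test was run. Rows with a mean of at least 0.5 FPKM were tested with limma 3.58.1 in R 4.3.3 on log2(FPKM + 1), with an intensity trend, two-sided, Benjamini-Hochberg adjusted over 15431 rows. The pseudocount understates changes of low genes, and folds are ratios of mean FPKM. The code was tested on simulated data, where 54 of 100 changes of 2-fold and 90 of 100 of 4-fold in FPKM + 1 were recovered, with 12 false calls. A row not called may thus still differ by 2-fold. The rows changed in the simulation were few and left out the lowest rows, while in the data 36.5% of rows were called. The recovery rates need not hold for the data. No libraries were near copies: at most 0.842% of tested values were identical between any pair. The labels give no batch.

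Same-numbered libraries of the diets deviated together over tested rows (correlations 0.257, 0.143 and 0.181 for replicates 1, 2 and 3, and −0.187 to 0.038 for unlike numbers). Deviations were taken from the mean of each diet, so higher values for like numbers bring lower ones for unlike numbers. The labels do not say what the numbers, taken from the sample titles, mark, so a pairing is not established. The main fit left the replicate out, and a fit with the replicate as a block was also run. Alternatives were other pseudocounts, filters, scalings, variance priors and leaving out each library.

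The members and all gene lists were chosen with earlier results of these data known. Named are every called member, a fixed list of well-known members, the 3 most abundant members, untested members with an adenine mean of at least 0.2 FPKM, and up to 3 rises and 2 falls per pathway list (1 such gene is not reported here); others were chosen after their values were seen. Adgre1 was matched by its older symbol. Promoter sequences are from RefSeq, GRCm38.p6; 65 members matched and Il1f6 did not.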

Additional observations from a re-analysis of the deposited data

How the results depend on the processing

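Of the 32 interleukin rows called, 20 kept their call in every alternative run and 12 lost it in at least 1. With the replicate block 31 were higher and 1 lower, the 32 called before, and the block alone changed no member's call. The count of higher rows was 33 and 31 with pseudocounts of 0.1 and 0.5, 33 without a filter (rows at 0 in all libraries dropped), 36 with the filter of above 0 in 3 libraries, 28 at a mean of at least 1 FPKM, 28 with median-of-ratios scaling, 23 with quantile normalization, and 22 to 34 when a library was left out. The count of lower rows was 2 with a pseudocount of 0.1, 4 with median-of-ratios scaling (Il1f5, Il15, Il15ra and Il11ra1), 3 with quantile normalization, 2 without a variance trend, 4 with the replicate block and median-of-ratios scaling, and 0 to 2 when a library was left out. Of the pathway genes 1 was lower with median-of-ratios scaling, 2 with quantile normalization, 2 with the replicate block and median-of-ratios scaling, and 0 to 1 when a library was left out. Calls over the whole table, 5637, were 2119 to 7046 when a library was left out (3609, 2119 and 7046 without adenine 1, 2 and 3; 2915, 2929 and 2789 without standard 1, 2 and 3). Log2 changes of uncalled rows that turned negative were Il17ra −0.069, −0.20 and −0.069 and Il18 −0.05, −0.35 and −0.05 (median-of-ratios, quantile, and replicate block with median-of-ratios), Il18 also when a library was left out (−0.12 to 0.35, with −0.10 without standard 2), and Il12rb2 −0.24, Il1rap −0.17 and Il7 −0.17 with quantile normalization. The cause of these changes was not tested. The number of libraries, 3 a diet, and the depth limit what can be said of rows under 0.5 FPKM.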
